A study of Rattus norvegicus with 64 samples.

Results

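Genes of the motile cilium, the beating organelle that ependymal cells carry on the surface of the brain ventricles, were described in RNA sequencing read counts from the hippocampus and the cortex of 32 rats. Members were taken by symbol from the authors' comparison tables. They are the genes named Cfap, Dnah, Dnai, Drc, Rsph or Tekt followed by a digit, together with Ak7, and where a symbol had several rows the row of highest total was kept. The rule gave 47 of the 32551 gene rows, of which 15432 carried a symbol. They were 21 Cfap genes, 10 Dnah genes, 2 Dnai genes, 3 Drc genes, 5 Rsph genes, 5 Tekt genes and Ak7. Foxj1, which the rule also names, and Rsph4a matched no row and were not analysed here. All 47 members passed the low-count filter over all groups together, which 15884 genes passed. The libraries form 8 groups of 8, each with 4 male and 4 female rats, for every combination of region, genotype and treatment. The genotypes were ApoE3 and ApoE4, named for forms of apolipoprotein E, a carrier of lipids. The labels do not state how the alleles were carried. The treatment was doxorubicin, an anthracycline chemotherapy drug, given weekly (2 mg/kg, 4 weeks) from an age of 5 weeks, and the control was phosphate-buffered saline (PBS). Both regions were collected 5 to 6 weeks after the last dose, from the same 32 rats.

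A motile cilium is built on a ring of doublet microtubules around a central pair. Dynein arms on the doublets, made of heavy chains (Dnah) and intermediate chains (Dnai), produce the beat. The nexin-dynein regulatory complex (Drc) links neighbouring doublets, radial spokes (Rsph) pass signals from the central pair to the dyneins, tektins (Tekt) run along the doublet wall, and many of the Cfap proteins sit inside the doublets or tether the arms. In the brain, ependymal cells carry such cilia. The epithelium of the choroid plexus, the tissue that secretes cerebrospinal fluid, carries cilia too. Transcription factors of the RFX family bind a promoter sequence called the X-box in many cilia genes.

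The promoters of the members were examined for this sequence. A link between the matches and the variation of the members from library to library was not tested. RefSeq (GRCr8) windows of 300 bases, from 250 before to 50 after the annotated start, matched 41 of the 47 members with 63 windows. The motif searched was GTTGC, then 3 or 4 bases of any kind, then GNAAC, on either strand. It was present in 10 of the 63 member windows (15.9%) and in 449 of all 33469 windows (1.34%). The 10 members were Cfap44, Cfap45, Cfap57, Dnah6, Dnah7, Dnah9, Dnai1, Dnai2, Tekt2 and Tekt4, against 387 of all 27457 genes with a window (1.41%). A match is a description of the letters and not a measured binding site. The 120 bases before the start are shown for 7 of these members, with the matches in capitals, and for Dnah8, which had no match in its window and is shown because it differed by region and by genotype.
Dnah6 (chr4:106842365-106842484, minus strand): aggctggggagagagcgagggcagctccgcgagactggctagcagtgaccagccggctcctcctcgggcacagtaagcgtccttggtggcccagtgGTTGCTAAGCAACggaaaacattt
Dnah7 (chr9:62756616-62756735, minus strand): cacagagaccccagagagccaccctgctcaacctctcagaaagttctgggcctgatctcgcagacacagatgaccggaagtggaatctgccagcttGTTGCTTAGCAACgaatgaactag
Tekt2 (chr5:143907725-143907844, minus strand): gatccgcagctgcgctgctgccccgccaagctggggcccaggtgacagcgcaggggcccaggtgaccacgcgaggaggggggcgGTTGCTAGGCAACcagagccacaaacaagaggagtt
Tekt4 (chr10:14992164-14992283, plus strand): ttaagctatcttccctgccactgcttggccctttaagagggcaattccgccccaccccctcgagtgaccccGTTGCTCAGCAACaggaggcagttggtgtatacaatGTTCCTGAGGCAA
Dnai2 (chr10:100258902-100259021, plus strand): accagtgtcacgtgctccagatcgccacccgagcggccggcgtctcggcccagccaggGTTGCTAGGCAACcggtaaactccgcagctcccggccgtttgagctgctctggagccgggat
Cfap44 (chr11:69789906-69790025, minus strand): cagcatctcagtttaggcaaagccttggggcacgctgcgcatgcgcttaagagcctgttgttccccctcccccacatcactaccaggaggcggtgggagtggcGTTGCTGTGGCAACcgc
Dnah9 (chr10:51363964-51364083, minus strand): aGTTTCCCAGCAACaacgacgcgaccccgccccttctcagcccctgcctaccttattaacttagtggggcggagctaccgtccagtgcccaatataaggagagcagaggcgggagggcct
Dnah8 (chr20:8694475-8694594, plus strand): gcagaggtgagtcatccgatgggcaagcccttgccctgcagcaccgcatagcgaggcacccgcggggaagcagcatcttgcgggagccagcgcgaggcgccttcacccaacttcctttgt

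The match lay from base -24 to base -12 before the start in both Dnah6 and Dnah7, inner-arm dynein heavy chains. In Tekt2 it lay from -36 to -24, in Dnai2 from -62 to -50 and in Cfap44 from -17 to -4. Tekt4 held 2 matches, from -49 to -37 and from -13 to 0, where base 0 is the annotated start, so the last letter of the second falls outside the printed stretch. Tekt2 and Dnai2 hold the same 13 letters, GTTGCTAGGCAAC. The match of Dnah9 was the farthest from a start, at -119 to -107.

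Library totals were between 10.8M and 20.4M counts (median 14.5M), and spike-in sequences took 0.932% to 2.44% of them. All levels below are read counts scaled to library size (CPM), which are not corrected for gene length, so levels of different genes are not compared. Rat numbers in the labels run in blocks by genotype, sex and treatment, so a batch that follows those blocks cannot be told apart from genotype or treatment. In bulk tissue, fewer ciliated cells and less RNA per cell cannot be told apart.

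Part of the hippocampal libraries also carried choroid plexus RNA. The mean log2 CPM of 16 choroid plexus genes was above 4 in 6 of the 32 hippocampal libraries and at most 3.38 in the other 26, and its highest value in the cortex was 3.24. The 6 libraries were rat 37 (ApoE3 PBS), rats 51 and 65 (ApoE3 doxorubicin), rats 7 and 26 (ApoE4 PBS) and rat 10 (ApoE4 doxorubicin). Transthyretin (Ttr), the most abundant choroid plexus product, was at 2911, 5512, 4494, 10649, 5116 and 1950 CPM in them, in that order. Ak7, an adenylate kinase of motile cilia, was at 5.89, 9.38, 9.71, 13.7, 10.6 and 6.19 CPM in the same libraries. In all 6 of them 24 of the 47 members were above the median of the other libraries of their group, and the median difference over the members was 0.757 on the log2 scale. In the ApoE4 PBS hippocampus rat 7 had the highest level of 37 of the 47 members. The counts and medians of the members that rest on these libraries are therefore given with and without them, as are single members whose call changed by region.

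**Figure D1:**
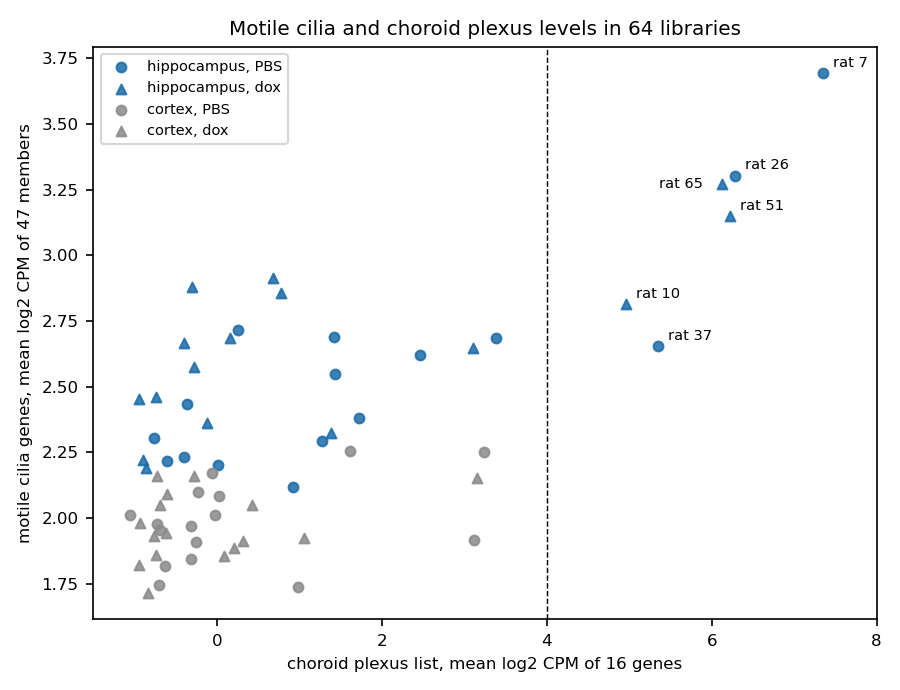
Mean log2 CPM of the 47 motile cilia genes (vertical axis) against the mean log2 CPM of 16 choroid plexus genes (horizontal axis), 1 point per library, circles for PBS and triangles for doxorubicin, hippocampus in blue and cortex in grey. The 6 hippocampal libraries to the right of the dashed line at 4 are labelled by rat, and rat 7 is highest on both axes.

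More members were higher in the hippocampus than in the cortex in each of the 4 pairs of groups. In ApoE3 PBS rats 21 members were higher and 4 lower in the hippocampus among 44 tested (edgeR adjusted p under 0.05). Of all 14980 genes tested, 49.3% passed, 24.3% higher and 25.1% lower. In ApoE3 doxorubicin rats 28 of 45 were higher and 3 lower, where 50.3% of all genes passed, 25.1% higher and 25.2% lower. In ApoE4 PBS rats 28 of 45 were higher and 1 lower, where 49.2% of all genes passed, 24.8% higher and 24.4% lower. In ApoE4 doxorubicin rats 29 of 45 were higher and 3 lower, where 50.9% of all genes passed, 25.2% higher and 25.7% lower. The share of members called higher thus lay above the share of all genes in each pair, and the share called lower below it. Tekt4 and Dnai2 did not pass the low-count filter in the cortical comparisons of doxorubicin, nor did Cfap161 in that of ApoE4 rats. Where that held, they entered the region tests through their hippocampal reads and could hardly be called lower. The median log2 difference over the members was positive in each of these 4 pairs. Without the 6 libraries high in choroid plexus genes the counts were 20 higher and 4 lower, 23 and 4, 21 and 3, and 28 and 4, with medians of 0.405, 0.489, 0.347 and 0.555 (0.422, 0.790, 0.786 and 0.547 with them). In those fits 7129 of 15042, 7181 of 14971, 7167 of 14930 and 7829 of 15017 genes passed. Of these genes 3503, 3515, 3559 and 3962 were higher. All choroid plexus genes tested had higher hippocampal estimates in the same pairs, with 0 of 10, 9 of 10, 13 of 13 and 7 of 10 called and medians of 1.83, 3.80, 4.37 and 2.79, while without those libraries 0, 0, 0 and 6 were called higher and 0, 3, 0 and 0 lower. Of 14 meningeal genes 13, 2, 2 and 2 were called higher and 0, 6, 0 and 0 lower (0, 7, 0 and 10 lower without those libraries), and of 6 oligodendrocyte genes 0 were called higher and 6, 0, 4 and 0 lower. The part of meningeal and oligodendrocyte RNA in the members' differences was not tested. Of the 44 members tested in all 4 pairs, 21 were higher in each, 1 was lower in each and 8 were called in none. How often all genes share their calls in this way was not computed.

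**Figure D2:**
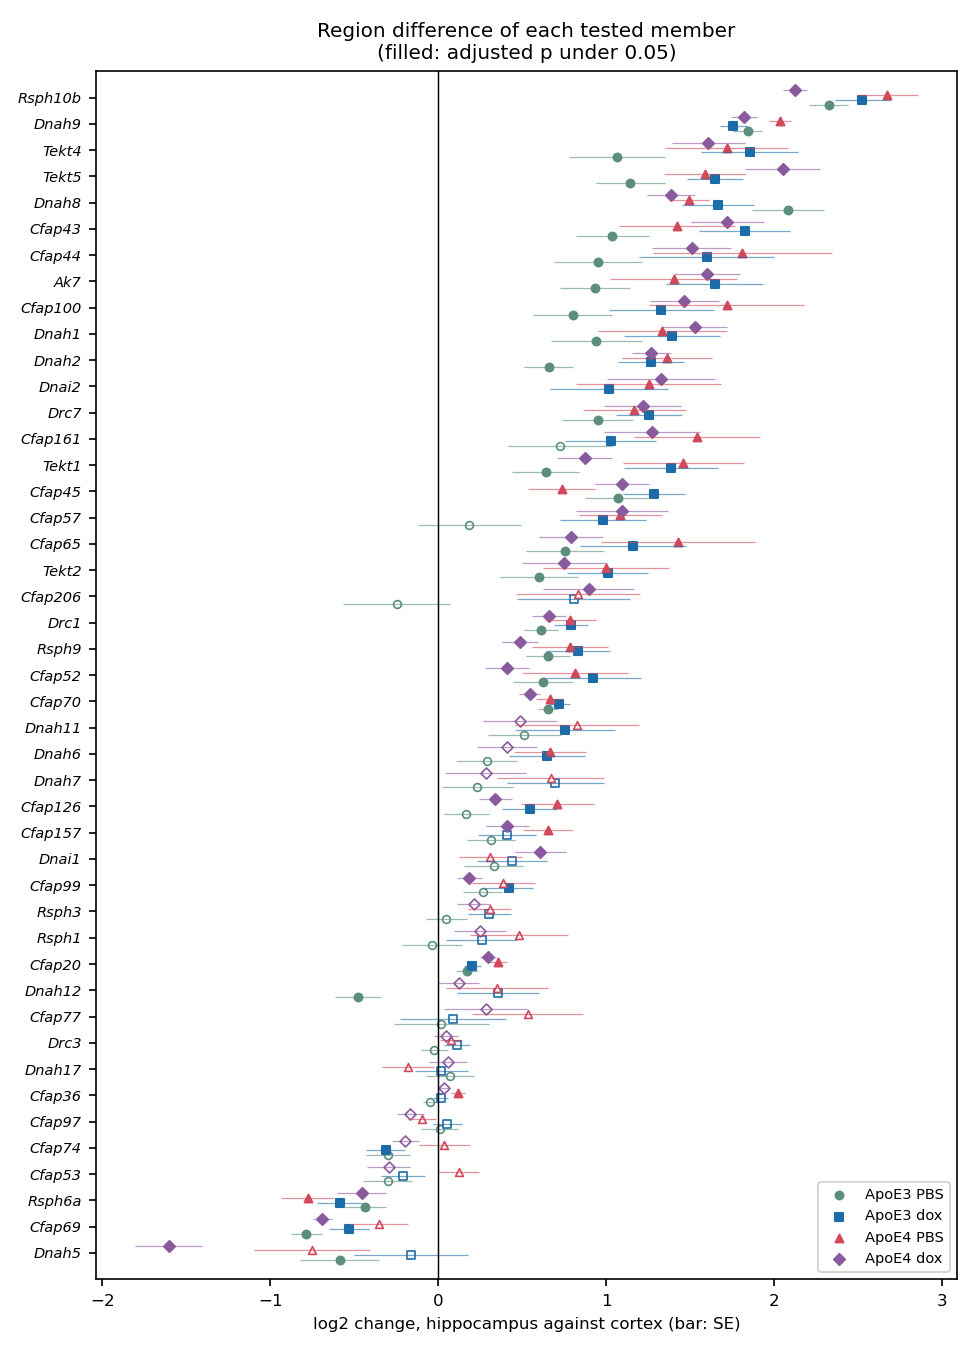
Log2 difference of hippocampus against cortex (horizontal axis) for each tested member (rows), with a green circle for ApoE3 PBS, a blue square for ApoE3 doxorubicin, a red triangle for ApoE4 PBS and a purple diamond for ApoE4 doxorubicin rats, bars of 1 SE and filled markers for an edgeR adjusted p under 0.05. Rsph10b lies farthest to the right, at 2.13 to 2.67, and Rsph6a is on the left in all 4 pairs.

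Among the outer-arm dynein heavy chains, Dnah9 separated the regions completely. It ran from 86.3 to 137 CPM with a median of 106 in the 32 hippocampal libraries, and from 22.3 to 38.6 CPM with a median of 30.0 in the 32 cortical ones. Every hippocampal library was above every cortical one. How often the regions separate in this way over all genes was not computed. The log2 difference was 1.84 (SE 0.09, adjusted p 6.44e-13) in ApoE3 PBS rats, and 1.76, 2.04 and 1.82 in the ApoE3 doxorubicin, ApoE4 PBS and ApoE4 doxorubicin rats. Dnah8, an outer-arm chain best known from the sperm flagellum, ran from 5.45 to 15.0 CPM in the hippocampus (median 9.51) and from 0.465 to 5.42 CPM in the cortex (median 3.44), again without overlap. Its log2 differences in the 4 pairs were 2.08 (SE 0.21), 1.67, 1.49 and 1.39.

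Dnah5, the outer-arm chain most often mutated in primary ciliary dyskinesia, went the other way. Its medians in the cortex were 1.85, 2.11, 3.79 and 4.99 CPM in ApoE3 PBS, ApoE3 doxorubicin, ApoE4 PBS and ApoE4 doxorubicin rats, and in the hippocampus 1.17, 1.33, 1.84 and 1.59 CPM. It was lower in the hippocampus in 29 of 32 rats. The log2 difference was -0.59 (adjusted p 0.0442) in ApoE3 PBS rats and -1.60 (SE 0.20, adjusted p 1.68e-06) in ApoE4 doxorubicin rats. It was -0.16 (adjusted p 0.717) and -0.75 (adjusted p 0.0799) in the ApoE3 doxorubicin and ApoE4 PBS rats. Without the libraries high in choroid plexus genes these last values were -0.82 (adjusted p 0.0152) and -1.45 (adjusted p 6.24e-05), and the ApoE3 PBS value was -0.56 (adjusted p 0.0703). With the rat as a block the ApoE4 PBS difference was -0.91 (adjusted p 0.00559). Dnah11 was called higher in 1 pair of the 4 (0.75 in ApoE3 doxorubicin rats, adjusted p 0.0405, and 0.21 with adjusted p 0.427 without the choroid-rich libraries), and Dnah17 in none.

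The inner-arm heavy chains Dnah1 and Dnah2 were higher in the hippocampus in all 4 pairs. Dnah2 had medians of 9.11, 13.9, 11.9 and 12.8 CPM in the 4 hippocampal groups and 5.89, 5.91, 5.37 and 5.25 CPM in the cortical ones, in the order used above. Its log2 differences were 0.66 (SE 0.18, adjusted p 0.000996), 1.27, 1.36 and 1.27, and it was higher in 31 of 32 rats. Those of Dnah1 were 0.94, 1.39, 1.34 and 1.53. Dnah12, another inner-arm chain, was lower in the hippocampus of ApoE3 PBS rats by 0.48 on the log2 scale (adjusted p 0.00646), and its differences in the other pairs were 0.36, 0.35 and 0.12, none of which passed. It was higher in the hippocampus in 16 rats and lower in 16. Dnah6 was called higher in 2 pairs (0.65 and 0.66), and both calls ended without the choroid-rich libraries (0.43 and 0.31, adjusted p 0.0992 and 0.101). Dnah7 was not called in any pair. The intermediate chain Dnai2 was called higher in the 3 pairs where it was tested (1.02, 1.26 and 1.33), and the first 2 of these were 0.52 and 0.47 (adjusted p 0.166 and 0.237) without those libraries. Dnai2 could be tested in these pairs through its hippocampal reads. Dnai1 was called in ApoE4 doxorubicin rats alone among the 4 pairs (0.61, adjusted p 0.00253), and its differences between pairs were not tested.

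Among the radial spoke genes Rsph10b had the widest gap. It ran from 27.5 to 88.3 CPM in the hippocampus (median 41.9) and from 5.39 to 12.5 CPM in the cortex (median 8.09), with no overlap, and its log2 differences were 2.32 (SE 0.12, adjusted p 1.81e-12), 2.52, 2.67 and 2.13. Rsph9, a spoke head protein, was higher in each pair by 0.65, 0.83, 0.79 and 0.49. Rsph6a, a spoke head protein known from sperm, was lower in each pair, by -0.44 (adjusted p 0.00675), -0.59 (0.00112), -0.78 (0.000457) and -0.45 (0.0136) on the log2 scale. Its hippocampal medians were 3.48, 3.99, 2.46 and 3.02 CPM and its cortical ones 4.84, 5.63, 3.89 and 4.04 CPM. Rsph1 and Rsph3 were not called in any pair.

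The regulatory complex and the tektins were higher in the hippocampus with few exceptions. Drc1 was higher in 32 of 32 rats, by 0.61 (adjusted p 3.76e-05), 0.79, 0.79 and 0.66, and Drc7 by 0.95, 1.25, 1.17 and 1.22, while Drc3 was called in no pair. All 4 tektins tested, Tekt1, Tekt2, Tekt4 and Tekt5, were called higher in each of the 4 pairs, Tekt4 with the limit of the low-count filter given above. Tekt4 had hippocampal medians of 1.62, 1.82, 1.72 and 1.85 CPM and cortical medians of 0.574, 0.453, 0.598 and 0.598 CPM, with log2 differences of 1.06, 1.85, 1.72 and 1.61. Tekt5, known from the sperm flagellum, was higher in 32 of 32 rats, by 1.14 (adjusted p 0.000102), 1.65, 1.59 and 2.05. Tekt2 lost its call in both PBS pairs without the choroid-rich libraries (0.49 in ApoE3 and 0.34 in ApoE4, adjusted p 0.0943 and 0.295). Tekt3, with medians of 0.225 to 0.788 CPM, was too low to be tested in any pair.

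Most of the Cfap genes called were higher in the hippocampus too. Of 20 tested, 8, 12, 13 and 14 were called higher in the 4 pairs and 1, 2, 0 and 1 lower. Cfap43 and Cfap44, which tether inner-arm dyneins to the doublet, were higher in each pair, Cfap43 by 1.04 (SE 0.22, adjusted p 0.000543), 1.82, 1.42 and 1.72 and Cfap44 by 0.95 (adjusted p 0.00493), 1.60, 1.81 and 1.51. The Cfap44 value in ApoE4 PBS rats was 0.63 (adjusted p 0.0687) without rats 7 and 26. Cfap70 had a smaller gap but no overlap, at 26.5 to 40.6 CPM in the hippocampus and 18.1 to 26.3 CPM in the cortex, with log2 differences of 0.65, 0.72, 0.66 and 0.55. Cfap69 was lower in the hippocampus in 30 of 32 rats. Its hippocampal medians were 18.1, 19.8, 19.9 and 18.0 CPM and its cortical medians 34.4, 31.8, 32.2 and 29.8 CPM. The log2 difference was -0.78 (adjusted p 5.4e-07), -0.53, -0.35 (adjusted p 0.098) and -0.69, and the ApoE4 PBS value was -0.67 (adjusted p 1.46e-06) without the choroid-rich libraries. Cfap20, a protein of the doublet seam, was higher in each pair by at most 0.36. Cfap53, Cfap77 and Cfap97 were called in none. Without the choroid-rich libraries the calls of Cfap52 (0.35, adjusted p 0.0715) and Cfap99 (0.24, 0.129) ended in ApoE3 doxorubicin rats. Those of Cfap36 (0.09, adjusted p 0.123), Cfap52 (0.12, 0.553) and Cfap65 (0.32, 0.0925) ended in ApoE4 PBS rats, and that of Cfap99 (0.19, 0.0536) in ApoE4 doxorubicin rats. Cfap74 was gained as lower in ApoE3 PBS rats (-0.37, adjusted p 0.0221) and in ApoE4 doxorubicin rats (-0.22, 0.0366).

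With the rat as a block, since both regions came from the same animals, the 4 pairs gave 22 higher and 5 lower, 29 and 3, 26 and 2, and 28 and 3. Of all genes 7373 of 14980, 7391 of 14818, 7177 of 14834 and 7560 of 15025 passed, with 3580, 3671, 3574 and 3726 higher. In ApoE3 PBS rats Cfap161 (0.71, adjusted p 0.0498) and Cfap74 (-0.31, adjusted p 0.0346) were called with the block and not without it. In ApoE3 doxorubicin rats Dnah7 (0.72, adjusted p 0.0153) and Rsph3 (0.31, adjusted p 0.0495) were gained and Dnah11 (adjusted p 0.0577) was lost. In ApoE4 PBS rats Rsph3 (0.29, adjusted p 0.0432) was gained beside Dnah5, and Cfap36, Cfap52 and Tekt2 (adjusted p 0.0546, 0.0802 and 0.0625) were lost. In ApoE4 doxorubicin rats Cfap99 (adjusted p 0.0742) was lost.

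Other genes of the cilium did not all lie on the same side. Of 10 genes that drive the making of many cilia, 4, 6, 7 and 6 were called higher in the hippocampus in the 4 pairs and 0, 1, 0 and 0 lower. Tp73, a transcription factor of that programme, was higher by 2.61 in ApoE3 PBS rats, and Rfx2, which binds X-boxes, by 1.37. Of 26 genes of intraflagellar transport, the carrier system that builds both motile and primary cilia, 2, 2, 4 and 2 were higher and 13, 8, 8 and 11 lower. Of the genes of the central pair, 3 of 8, 3 of 7, 4 of 8 and 4 of 8 were higher and 2, 0, 1 and 2 lower, and Spag6 was lower by 1.97 on the log2 scale in ApoE3 PBS rats. Of the dynein assembly factors, 1, 5, 6 and 3 of 11 were higher and 1 lower in each pair. Of other ependymal genes outside the rule, 9 of 20, 11 of 20, 11 of 21 and 8 of 21 were higher and 1, 2, 0 and 1 lower. Without the choroid-rich libraries the counts higher and lower were 4 and 0, 6 and 1, 4 and 0, and 7 and 0 for the genes that drive the making of many cilia. They were 2 and 13, 2 and 10, 2 and 9, and 2 and 10 for intraflagellar transport, 3 and 2, 3 and 3, 3 and 2, and 5 and 2 for the central pair, 1 and 2, 3 and 1, 3 and 1, and 3 and 1 for dynein assembly, and 9 and 1, 9 and 2, 10 and 1, and 8 and 2 for the other ependymal genes.

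**Figure D3:**
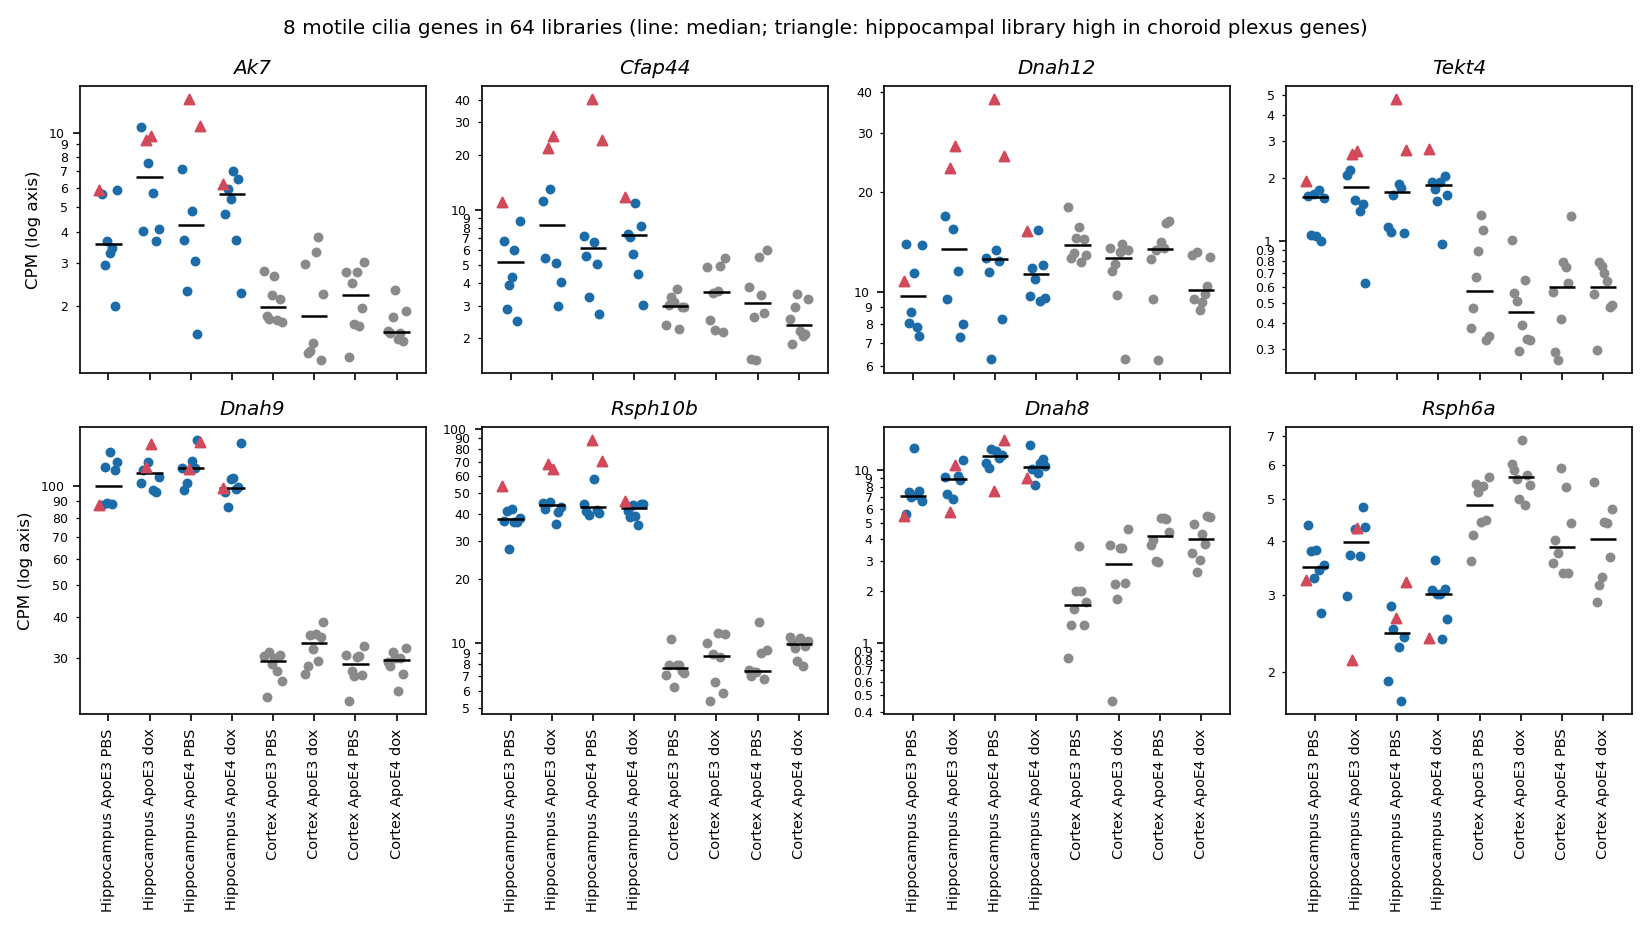
CPM on a log axis of 8 members in the 8 libraries of each group, hippocampus in blue and cortex in grey, with a line at the group median and red triangles for the 6 hippocampal libraries high in choroid plexus genes. Dnah9, Rsph10b and Dnah8 show no overlap between the regions, and the red triangles are the highest points of Cfap44 and Dnah12 in the ApoE3 doxorubicin and ApoE4 PBS hippocampus.

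The members did not vary together as 1 set. Their median SD of log2 CPM within a group was 0.497 in the hippocampus and 0.324 in the cortex, against 0.15 and 0.144 over 14318 genes of mean log2 CPM of at least 0. In the hippocampus it ranged from 0.0727 for Cfap36 to 1.01 for Cfap44. The likeness of each member to Ak7 was taken as the correlation of log2 CPM, after subtracting the group mean, over the 26 hippocampal libraries low in choroid plexus genes. These points share the dissection of 1 region, and the values are descriptions. Pearson r was at least 0.7 for 13 of 46 members (15 by Spearman rho) and below 0.3 for 17, with a median of 0.490. It was 0.912 for Cfap161 (rho 0.921), 0.898 for Cfap44, 0.880 for Cfap43, 0.876 for Cfap206, 0.849 for Dnah1 and 0.817 for Dnah12. Without the 2 libraries farthest from the median it was 0.890, 0.910, 0.877 and 0.870 for Cfap161, Cfap44, Cfap43 and Dnah1.

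A second group of members did not follow Ak7. Over the same libraries r was -0.312 for Dnah9, -0.268 for Dnah8, -0.414 for Cfap20, -0.553 for Cfap97 and 0.222 for Rsph10b. Dnah9, Dnah8 and Rsph10b are 3 of the 4 members whose regions did not overlap, and the share of all genes without overlap was not computed. Levels that followed Ak7 were thus found for part of the members only, and the set is called motile cilia genes here, not ependymal genes. No matched gene of the other ependymal list was at 0 in all libraries. The mean level of the other ependymal genes followed Ak7 with r of 0.887 (rho 0.921), that of the central pair genes with 0.839 and that of the dynein assembly factors with 0.792. The level of 6 oligodendrocyte genes followed it with 0.758 (rho 0.737, and 0.751 without the 2 farthest libraries), that of the choroid plexus genes with 0.497, neuronal genes with 0.160, astrocyte genes with -0.322 and intraflagellar transport genes with -0.0586. The part of the oligodendrocyte level in the Ak7 level was not tested. In the cortex, over 32 libraries, 1 of 46 members reached 0.7 and the median r was 0.249.

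**Figure D4:**
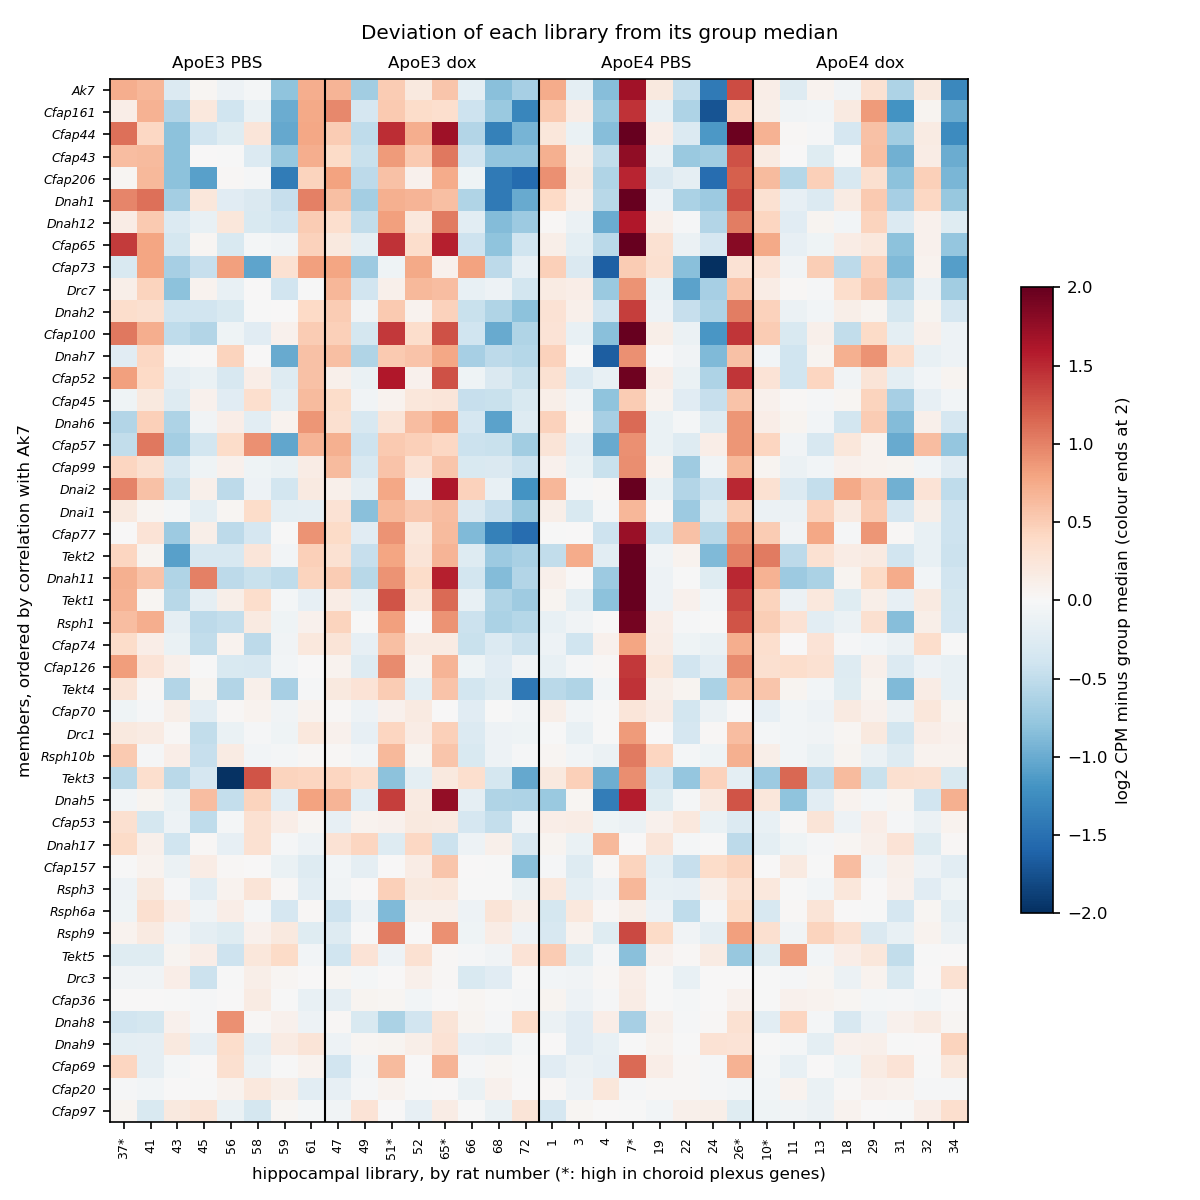
Log2 CPM minus the group median for each of the 47 members (rows, ordered by correlation with Ak7) in the 32 hippocampal libraries (columns, by group and rat number, with an asterisk for those high in choroid plexus genes), red for above and blue for below, with the colour ending at 2. Cfap161, Cfap44 and Cfap43 take the same colours as Ak7 in most columns, the column of rat 7 is red for 37 members at their group maximum, and Cfap36, whose SD was 0.0727, stays near white.

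Outside the rule, the genes with the highest r to Ak7 among 12937 genes over all 32 hippocampal libraries were Dlec1 (0.903), Ak9 (0.893), Fhad1 (0.888), Wdr63 (0.884) and Rgs22 (0.883). Over the 26 libraries low in choroid plexus genes they were Tf (0.870), Mag (0.851), Rgs22 (0.845), Ccdc78 (0.844) and Cnp (0.843). Tf, Mag and Cnp are genes of oligodendrocytes, the myelin-forming cells. In the cortex they were Adgb (0.722), Efcab1 (0.70), Spata18 (0.698), Wdr63 (0.694) and Dclre1a (0.662). The hippocampal list and the cortical list shared Wdr63.

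After doxorubicin, no member passed the test in either region of either genotype. In the hippocampus of ApoE3 rats 0 of 47 members were called, where 0% of 14898 genes were called. An unadjusted p under 0.05 was found for 8 members and 1529 of these genes. DESeq2 called 145 genes there and 0 members. Of the members 43 of 47 had a higher estimate after doxorubicin, with a median of 0.29 on the log2 scale against 0.001 over all genes. Ak7 ran from 2.00 to 5.89 CPM with a median of 3.55 in PBS rats and from 3.65 to 10.6 CPM with a median of 6.63 in doxorubicin rats. All 8 doxorubicin libraries were above the PBS median, and the groups overlapped. The log2 difference was 0.73 (SE 0.25, adjusted p 0.287). Dnah2 ran from 6.93 to 12.0 CPM (median 9.11) and from 7.87 to 20.1 CPM (median 13.9), with a difference of 0.59 (SE 0.19, adjusted p 0.25), and Cfap45 had 0.39 (adjusted p 0.41). For Cfap45 too, all 8 doxorubicin libraries were above the PBS median. The lower estimates of smallest p were those of Cfap53 (-0.11), Cfap36 (-0.03) and Dnah17 (-0.08).

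These estimates moved with the choroid-rich libraries. In the same comparison 11 of 11 tested choroid plexus genes had higher estimates, with a median of 1.86, and the summed level of the list ran from 16.7 to 3699 CPM in PBS rats and from 12.0 to 7036 CPM in doxorubicin rats. Without rats 37, 51 and 65, 34 of 47 members had a higher estimate, the median was 0.07 and Ak7 had 0.57 (adjusted p 0.437). Of the members 2 had an unadjusted p under 0.05, as had 1704 of 14930 genes. The choroid plexus genes were not balanced in that fit either, as 0 of 10 had higher estimates, with a median of -2.74. With all libraries the 6 oligodendrocyte genes had higher estimates, with a median of 0.20. Their summed level ran from 6447 to 8243 CPM in PBS rats and from 6828 to 11118 CPM in doxorubicin rats. All 14 meningeal genes had lower estimates, with a median of -1.71 (-2.10 without rats 37, 51 and 65). The part of oligodendrocyte and meningeal RNA in the members' estimates was not tested.

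In the hippocampus of ApoE4 rats the estimates pointed the other way. Here 0 of 47 members were called against 0% of 14872 genes, and 6 members and 1098 genes had an unadjusted p under 0.05. DESeq2 called 1 gene and 0 members. A higher estimate was found for 7 of 47 members and the median was -0.19. Ak7 ran from 1.55 to 13.7 CPM (median 4.27) in PBS rats and from 2.27 to 6.99 CPM (median 5.67) in doxorubicin rats, with a log2 difference of -0.16 (adjusted p 0.942), so its mean-based estimate and its medians differ in sign. The smallest p belonged to Cfap36 (-0.10, adjusted p 0.609), Cfap53 (-0.29, 0.622) and Dnah9 (-0.18, 0.638) among the lower and to Dnah17 (0.36, 0.638), Rsph6a (0.25, 0.69) and Tekt5 (0.29, 0.756) among the higher. Dnah17 was above the PBS median in 8 of 8 doxorubicin libraries, and Cfap36, Cfap53 and Cfap99 were below it in 8 of 8. All 13 tested choroid plexus genes had lower estimates, with a median of -2.89, and the list summed to 21.6 to 14076 CPM in PBS rats and 18.0 to 2525 CPM in doxorubicin rats. Without rats 7, 26 and 10, 36 of 47 members had a higher estimate, the median was 0.12 and Ak7 had 0.46 (adjusted p 0.638). In that fit 9 of 13 choroid plexus genes had higher estimates (median 0.13). All 14 meningeal genes had lower ones, with a median of -1.53 (-0.32 with all libraries), as had all 12 vascular genes (-0.26). Their part in the members' estimates was not tested. Without rat 7 alone the median over the members was -0.008. From the ratio of group medians, 39 of 47 members were higher after doxorubicin in ApoE3 rats and 23 of 47 in ApoE4 rats.

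The difference between the genotypes in the hippocampal response changed when the same libraries were left out. The ApoE4 effect minus the ApoE3 effect was negative for 42 of 47 members, with a median of -0.48. Of the members 0 passed, as did 0% of 15415 genes (2 genes and 0 members by DESeq2). An unadjusted p under 0.05 was found for 16 members and 1261 of all genes. The smallest p belonged to Rsph10b (-0.64, SE 0.22, adjusted p 0.493), Tekt1 (-1.24, 0.514) and Cfap65 (-1.53, 0.534), and among the positive ones to Dnah17 (0.45, 0.581), Tekt5 (0.25) and Rsph6a (0.16). Without the 6 choroid-rich libraries 21 of 47 were negative and the median was 0.03. In that fit 1 member and 963 of 15402 genes had an unadjusted p under 0.05. The choroid plexus genes turned from 15 of 15 negative (median -4.54) to 13 of 13 positive (median 2.32). They were thus not balanced in that fit either.

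In the cortex of ApoE3 rats 0 of 43 members were called against 0% of 14770 genes (77 genes and 0 members by DESeq2). A higher estimate was found for 22 members, the median was 0.01, and 5 members and 1366 genes had an unadjusted p under 0.05. Dnah9 ran from 22.9 to 31.4 CPM (median 29.4) in PBS rats and from 26.8 to 38.6 CPM (median 33.4) in doxorubicin rats, a difference of 0.20 (SE 0.08, adjusted p 0.442). Dnah8 had 0.62 (adjusted p 0.502), Rsph6a 0.24 (0.517), Dnah12 -0.29 (0.491), Tekt5 -0.45 (0.554) and Cfap206 -0.46 (0.594). All 8 doxorubicin libraries were below the PBS median for Cfap69, Tekt2 and Tekt5 and above it for Cfap99 and Rsph6a. In the cortex of ApoE4 rats 0 of 42 members were called against 0% of 14837 genes (37 genes and 0 members by DESeq2). A higher estimate was found for 14 members, the median was -0.06, and 3 members and 1313 genes had an unadjusted p under 0.05. Cfap43 ran from 2.42 to 6.43 CPM (median 5.34) in PBS rats and from 2.70 to 4.89 CPM (median 3.31) in doxorubicin rats, a difference of -0.49 (SE 0.18, adjusted p 0.437). All 8 doxorubicin libraries were below the PBS median of Cfap43, and the same held for Cfap45 (-0.42, adjusted p 0.517), Dnah1, Dnah12, Dnai1 and Rsph1, while all 8 were above it for Rsph10b. The share of all genes with every doxorubicin library on the same side was not computed for either region. Dnah1 had -0.36 (adjusted p 0.552), Cfap20 0.10 (0.6), Rsph10b 0.20 (0.617) and Dnah5 0.26 (0.722). All 9 choroid plexus, 14 meningeal and 12 vascular genes tested had lower estimates in the ApoE4 cortex, with medians of -0.93, -0.34 and -0.14. In the ApoE3 cortex 4 of 5, 14 of 14 and 12 of 12 had higher ones, with medians of 0.19, 0.29 and 0.17. Their part in the members' estimates was not tested.

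In the cortex the ApoE4 response to doxorubicin minus the ApoE3 response had 0 of 45 members called against 0% of 15314 genes. This difference was positive for 21, with a median of -0.006 (0 genes called by DESeq2). An unadjusted p under 0.05 was found for 6 members and 834 genes. Its smallest p were those of Dnai2 (-1.05, adjusted p 0.879), Cfap65 (-0.49, 0.879) and Dnah1 (-0.55, 0.879), and of Cfap53 (0.31, 0.882), Cfap20 (0.09, 0.89) and Cfap97 (0.15, 0.89). The hippocampal response minus the cortical one in ApoE3 rats had 0 of 47 members called against 0% of 15427 genes. It was positive for 41, with a median of 0.24, and 4 members and 1236 genes had an unadjusted p under 0.05. DESeq2 called 126 genes and 0 members there. Dnah12 had 0.82 (SE 0.30, adjusted p 0.333), Dnah2 0.61 (0.498) and Cfap206 1.04 (0.584), while Dnah8 had -0.43 (0.799). Without rats 37, 51 and 65 in the hippocampus 32 members were positive and the median was 0.08. In that fit 0 members and 1435 of 15506 genes had an unadjusted p under 0.05. Of the choroid plexus genes 15 of 15 were positive with all libraries (median 1.35) and 0 of 12 in this fit (median -3.10). There edgeR called 102 of 15506 genes and 0 members. With the rat as a block and all libraries kept, edgeR called 9 of 15427 genes and 0 members. In ApoE4 rats 0 of 47 members were called against 0% of 15431 genes (0 genes by DESeq2), with 13 positive and a median of -0.19. Here 2 members and 554 genes had an unadjusted p under 0.05. Rsph10b had -0.54 (SE 0.20, adjusted p 1), Cfap53 -0.41 and Dnah5 -0.84, and Tekt5 had 0.47. Without rats 7, 26 and 10 in the hippocampus 33 members were positive, the median was 0.18 and 9 had an unadjusted p under 0.05, again with 0 called. With the rat as a block and all libraries kept, 4 members and 545 of 15431 genes had an unadjusted p under 0.05. The median over the members was then -0.07.

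The authors' deposited table of each comparison listed 47, 47, 43 and 42 members for the ApoE3 hippocampus, ApoE4 hippocampus, ApoE3 cortex and ApoE4 cortex. By the authors' deposited table, 0 of them had an adjusted p under 0.05, and 43, 7, 22 and 14 had a higher value after doxorubicin.

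Between the genotypes, Dnah8, Dnah5, Rsph6a and Cfap20 differed in PBS rats. In the hippocampus 1 member was higher and 1 lower in ApoE4 rats among 47, where 3.8% of all genes were called, 1.91% higher and 1.88% lower. In the cortex 2 members were higher and 1 lower among 45, where 18.2% of all genes were called, 9.63% higher and 8.57% lower. The share of members called was thus below that of all genes in the cortex and near it in the hippocampus. The comparisons of genotype share their PBS samples with those of doxorubicin.

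Dnah8 was higher in ApoE4 rats in both regions. In the hippocampus it ran from 5.45 to 13.5 CPM (median 7.12) in ApoE3 PBS rats and from 7.58 to 15.0 CPM (median 12.1) in ApoE4 PBS rats, a log2 difference of 0.64 (SE 0.14, adjusted p 0.00419). In the cortex it ran from 0.822 to 3.64 CPM (median 1.66) and from 2.96 to 5.34 CPM (median 4.18), a difference of 1.23 (SE 0.22, adjusted p 0.00014). Rat 56 had the highest ApoE3 PBS value in both regions and was the only one of that group within the ApoE4 PBS range in the cortex. Over both treatments all 16 ApoE4 libraries were above the ApoE3 median in each region. Without the choroid-rich libraries the hippocampal difference was 0.62 (adjusted p 0.0131). The Dnah8 level also went with the rat: over 32 rats the deviations from the group mean in the hippocampus and the cortex correlated with r of 0.630 (rho 0.697, and 0.563 without the 2 farthest rats), and the next member, Drc7, had 0.346. These pairs share the animal.

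Dnah5 was higher in the cortex of ApoE4 rats. It ran from 1.26 to 3.64 CPM (median 1.85) in ApoE3 PBS rats and from 2.49 to 6.21 CPM (median 3.79) in ApoE4 PBS rats, a difference of 1.02 (SE 0.22, adjusted p 0.00104). Over both treatments all 16 ApoE4 cortical libraries were above the ApoE3 median and 10 were above the highest ApoE3 value. In the hippocampus its estimate was 0.84 (SE 0.38, adjusted p 0.251). In the same cortical comparison 14 of 14 meningeal genes had higher estimates in ApoE4 rats and 8 were called (median 0.76), as had 12 of 12 vascular genes with 6 called (0.41) and 10 of 10 choroid plexus genes with 1 called (0.65). Their part in the differences of Dnah8, Dnah5 and Cfap20 was not tested.

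Rsph6a was lower in the hippocampus of ApoE4 rats. It ran from 2.73 to 4.36 CPM (median 3.48) in ApoE3 PBS rats and from 1.71 to 3.22 CPM (median 2.46) in ApoE4 PBS rats, a difference of -0.53 (SE 0.14, adjusted p 0.0311). Of the 16 ApoE4 hippocampal libraries 0 were above the ApoE3 median. Without the choroid-rich libraries the difference was -0.66 (adjusted p 0.00717). In the cortex the estimate was -0.19 (adjusted p 0.341), and the difference between the regions was not tested. Rsph6a lies on chromosome 1, as does Apoe, with 35 protein-coding genes between them in RefSeq (GRCr8). The other members on that chromosome, Rsph3, Cfap161 and Cfap43, have 547, 684 and 2249 protein-coding genes between them and Apoe, and none of them was called by genotype in either region. Dnah8, Dnah5 and Cfap20 lie on chromosomes 20, 2 and 19. Cfap20 was lower in the ApoE4 cortex by 0.17 on the log2 scale (SE 0.05, adjusted p 0.0246), at 35.0 to 46.9 CPM (median 38.0) in ApoE3 PBS rats and 31.9 to 37.6 CPM (median 34.2) in ApoE4 PBS rats.

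Over all 47 members the genotype estimate in the hippocampus was positive for 44, with a median of 0.47. Of the members 16 had an unadjusted p under 0.05, as had 2458 of 15415 genes. All 15 tested choroid plexus genes were higher in the same estimate, with a median of 2.46. Without the choroid-rich libraries 30 of 47 members were positive and the median was 0.04. In that fit 3 members and 2357 of 15402 genes had an unadjusted p under 0.05. Of the choroid plexus genes 5 of 13 were higher there (median -0.23). In the cortex the median over the members was 0.03.

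**Figure D5:**
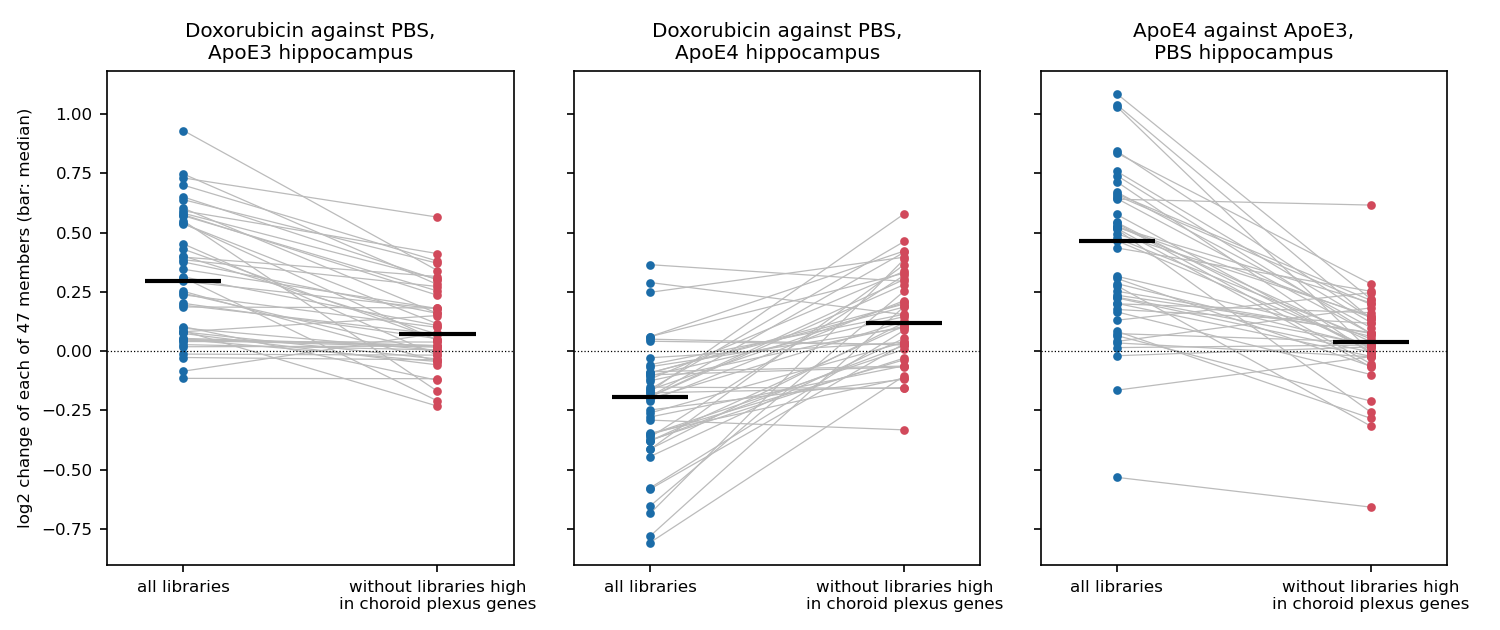
Log2 change of each of the 47 members in the hippocampus with all libraries (blue) and without the libraries high in choroid plexus genes (red), lines joining the same member and bars at the median, for doxorubicin against PBS in ApoE3 and in ApoE4 rats and for ApoE4 against ApoE3 in PBS rats. The median moves from 0.29 to 0.07, from -0.19 to 0.12 and from 0.47 to 0.04. The medians of the choroid plexus genes without those libraries were -2.74, 0.13 and -0.23.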

How the data were processed

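RNA was sequenced from 64 libraries of 32 rats, and the rats carry separate numbers in the labels. Reads were aligned with STAR 2.5.2b and compared with DESeq2 (version not given), per the submitters' processing notes; the read counter, genome build and strandedness are not given in the sources used here. The deposited count tables hold whole read counts for 32551 genes, 92 spike-ins and 1 donor row. The authors' deposited comparison tables give each gene its log2 change with a raw and an adjusted p-value, and a signal per library, which is the count divided by a size factor.

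Gene counts without spike-ins were tested with edgeR 4.0.16 in R 4.3.3: filterByExpr, TMM scaling, the quasi-likelihood F-test with sex as covariate, and Benjamini-Hochberg adjustment over all genes at 0.05. Interaction terms gave differences of effects. The fit was tested on simulated counts. SE was taken from the log2 change and the F statistic (change over root F). Alternatives were DESeq2 1.42.0, median-of-ratios scaling, no low-count filter, no sex covariate, all groups of a region in 1 fit and the rat as block. Leaving out single libraries and the choroid-rich ones was chosen after seeing the data. Hippocampal and cortical libraries with the same rat number come from the same animal, and their deviations correlated with r over 0.1 in 27 of 32 rats (lowest -0.0778, median 0.221, highest 0.371).

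The members and gene lists were chosen with earlier results of these data known. Named are members of each structural group, the members called in a comparison (at most 10 a direction where more than 20 passed) or otherwise the 3 of smallest p in each direction, and the 5 genes most like Foxj1, replaced by Ak7 because Foxj1 matched no row. Other members were named after their values were seen, where a call ended or was gained. Depth and 8 libraries per group limit the precision.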

Additional observations from a re-analysis of the deposited data

Results flagged for a closer look

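In 28 of the members, the highest and the lowest library of each group of 8 were compared with the rest, and 18 of 224 groups had a library that stood apart (a gap over 0.526 of the group's range). For normally distributed and independent groups chance gives about 1 in 20. The values here are CPM not taken to the log scale, and members share libraries, so the count is not read as an excess.

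Rat 7 stood apart in the ApoE4 PBS hippocampus with 36.8 CPM of Cfap65 (next library 18.1), 8.16 CPM of Tekt2 (next 3.63) and 4.80 CPM of Tekt4 (next 2.74), and it also had the highest choroid plexus level of the hippocampal libraries. Rats 37 and 10, also choroid-rich, stood apart, rat 37 with 16.3 CPM of Cfap126 in the ApoE3 PBS hippocampus and rat 10 with 4.03 CPM of Tekt2 in the ApoE4 doxorubicin hippocampus. Rat 56 stood apart for Dnah8 in both regions of the ApoE3 PBS group, with 13.5 CPM in the hippocampus (next 7.59) and 3.64 CPM in the cortex (next 2.01). In the hippocampus, rat 4 had 51.2 CPM of Cfap20 in the ApoE4 PBS group, rat 34 had 134 CPM of Dnah9 in the ApoE4 doxorubicin group and rat 45 had 12.6 CPM of Drc3, the lowest of the ApoE3 PBS group.

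In the cortex, rat 19 of the ApoE4 PBS group stood apart with 12.5 CPM of Rsph10b and 13.0 CPM of Rsph9, and its choroid plexus level was the highest of the cortical libraries (mean log2 CPM 3.24, Ttr 586 CPM). In the ApoE3 PBS cortex rat 61 had 3.64 CPM of Dnah5, rat 43 had 10.4 CPM of Rsph10b and rat 45 had 14.3 CPM of Drc1, the lowest of its group. In the ApoE4 doxorubicin cortex rat 32 had 2.29 CPM of Tekt2, and rats 10 and 31 were the lowest with 7.31 CPM of Cfap126 and 2.84 CPM of Rsph1. The causes were not tested.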

How the results depend on the processing

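The count of members called, both directions together, stayed within 1.5 times under every alternative run, except that 1 member instead of 2 was called by genotype in the hippocampus without the low-count filter (Rsph6a -0.53, adjusted p 0.0568). In ApoE4 PBS rats the members called lower in the hippocampus went from 1 to 3 without the choroid-rich libraries and to 2 with the rat as a block. Without the 6 choroid-rich libraries the median over the members turned from negative to positive for doxorubicin in the ApoE4 hippocampus (0.12). So did the median of the ApoE4 minus the ApoE3 response to doxorubicin in the hippocampus (0.026). The median of the hippocampal minus the cortical response in ApoE4 rats did as well (0.18). The choroid plexus or the meningeal genes were not balanced in these fits, as given above. Dnah17 turned to 0.076 for doxorubicin in the ApoE3 hippocampus. In the cortex the ApoE4 minus the ApoE3 response to doxorubicin had a median of 0.0055 without the low-count filter. Leaving out 1 library at a time, the median after doxorubicin ran from 0.15 (without rat 65) to 0.34 in the ApoE3 hippocampus, from -0.30 (without rat 4) to -0.008 (without rat 7) in the ApoE4 hippocampus, from -0.00038 (without rat 41) to 0.048 in the ApoE3 cortex and from -0.09 to -0.04 in the ApoE4 cortex. No member was called in any of these. With the rat as a replicate block, 27 members in all were called by region in ApoE3 PBS rats. With that block the median of the hippocampal minus the cortical response to doxorubicin in ApoE4 rats was -0.07. The calls of Dnah5 in ApoE3 PBS rats (-0.58, adjusted p 0.0631 without the filter) and of Cfap74 in ApoE3 doxorubicin rats (-0.30, adjusted p 0.0608 without the sex covariate) were also lost. The causes were not tested. Members with medians near 1 CPM, such as Tekt3 and Cfap73, rest on few reads.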
